A study of Homo sapiens with 6 samples.

Results

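The 41 genes described here encode the glucose and lactate transporters, the glycolytic enzymes, the regulators of glycolytic flux, the oxygen-sensing proteins and further targets of hypoxia-inducible factor (HIF). They were taken by symbol from the gene table of an RNA-seq experiment, in which each symbol matched 1 of 57820 genes. The experiment used M14, a human melanoma cell line that expresses a STAG2 shRNA under doxycycline control and was kept under puromycin. STAG2 is a subunit of cohesin, the ring complex that holds DNA loops together. The KD cells received doxycycline for 5 days and the WT cells, which carried the same shRNA construct, did not, and 3 libraries of polyadenylated RNA were made per condition. The labels call the WT cells wild type and name 1 cell line and 1 shRNA. The study describes its replicates as biologically independent, and the labels do not add how the cultures were kept apart. Doxycycline, which also acts on mitochondrial ribosomes, was present in the KD cells alone, so effects of the drug and of STAG2 loss cannot be told apart.

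In glycolysis, glucose enters the cell through facilitative transporters, is trapped by hexokinase and is converted stepwise to pyruvate, which lactate dehydrogenase reduces to lactate for export. When oxygen is low, HIF alpha subunits escape hydroxylation by prolyl hydroxylases, pair with ARNT and bind hypoxia response elements with the core letters ACGTG or GCGTG. The genes they switch on include most of the glycolytic pathway together with VEGFA and CA9, and many tumors, melanoma among them, express these genes in the presence of oxygen.

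HK2, which encodes an inducible hexokinase, and VEGFA, which encodes the main angiogenic growth factor, were both higher in KD. The level of HK2 was 2.45-fold and that of VEGFA 2.40-fold the WT level. No member was called lower in this test. The libraries were also matched by replicate number, a pairing that the labels do not name. With this match P4HA1, a collagen prolyl hydroxylase, was also called higher. GPI, LDHA and CA9 were called lower, so that the calls ran in both directions. GPI and LDHA encode enzymes of the pathway, and CA9 encodes a cell-surface carbonic anhydrase that is a standard marker of HIF activity.

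The promoter letters of these 6 genes, except VEGFA, are given first. The reason is that HIF binds such sequences and the members were grouped partly as its targets. Promoter windows came from a RefSeq table of build GRCh38.p14, in which a window runs from 250 bases before a transcript start to 50 bases after it, and 36 of the 41 members had at least 1 window. SLC2A3, SLC16A1, VEGFA, BNIP3L and NDRG1 had none. The stretches below were placed on GRCh37 by exact match within their gene's surroundings, and each reads 5′ to 3′ on the gene's strand. Capitals mark ACGTG or its reverse complement CACGT, or CACGTG where both strands read the core.
HK2, first window, chr2:75061193-75061222, plus strand: caatgggcgtgcgCACGTcactgatccgga
HK2, second window, chr2:75062136-75062165, plus strand: ttccggcgagagCACGTGgagagaatcgtg
GPI, chr19:34855722-34855751, plus strand: aacactgcctgtaACGTGgaaggtgttcga
LDHA, chr11:18416024-18416053, plus strand: ACGTGggttcccgCACGTccgccggccccc
CA9, chr9:35673894-35673923, plus strand: ctcgtttccaatgCACGTacagcccgtaca
P4HA1, chr10:74856694-74856723, minus strand: gtgtgatcgagctCACGTagcgagggctgc

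The core lay 18 bases before the transcript start in CA9 and 48 bases before it in the first HK2 window. The corresponding distances were 73 bases in LDHA, 86 in P4HA1, 148 in the second HK2 window and 162 in GPI. In P4HA1, GPI and the second HK2 window that start was a later one, and the stretch lies inside the gene span given below. LDHA held 2 matches within the printed stretch. ACGTG on either strand was found in 25 of 66 member windows (37.9%), against 21.4% of all 35116 windows. At least 1 window held it in 21 of the 36 members (58.3%), against 24.9% of 27305 genes. The share by gene also rises with the number of windows per gene. Members had 66 windows for 36 genes, more per gene than the 35116 windows for 27305 genes. GCGTG was found in 43.9% of the member windows and 36.5% of all windows. The palindrome CACGTG, which contains ACGTG on both strands and is also read by MYC and MITF, was found in 12.1% of the member windows and 7.26% of all. HK2 and P4HA1, called higher, and GPI, LDHA and CA9, called lower, all held ACGTG on either strand. So did members that were not called, among them PFKM, GAPDH, PGK1 and PDK1, while SLC2A1 and HK1 had windows without it. A match is a description of the sequence and does not show that HIF binds there.

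The libraries held 24895998 to 35181733 expected counts. Levels, except those of cell type markers, are given as CPM (counts scaled to library size) scaled between libraries by the TMM method. A floor of 3 counts came to 0.0870 to 0.112 CPM on that scale and covers counting error only. STAG2 itself was at 66.5, 34.8 and 28.8 CPM in WT replicates 1 to 3 and at 16.0, 7.31 and 6.70 CPM in KD, a log2 fold change of -2.12 ± 0.43 (SE, adjusted p = 0.0342, edgeR). Replicate 1 of each condition stood apart from replicates 2 and 3. Cell type markers are given as CPM of the library total, without TMM scaling. The summed level of 8 melanocyte lineage markers was 6804 CPM in WT replicate 1 against 1878 and 1754 CPM in the other WT libraries. In KD it was 2779 CPM in replicate 1 against 1202 and 1180 CPM. PMEL and DCT, at 3634 and 1543 CPM, made up most of the WT replicate 1 sum. SOX10 alone was not highest in replicate 1 of both conditions, at 617, 658 and 578 CPM in WT and 345, 450 and 362 CPM in KD. All 8 markers were detected in every library of this melanoma line, whereas the summed leukocyte markers reached at most 3.66 CPM and the endothelial markers 5.50 CPM. The 5 fibroblast markers summed to 4.59, 90.3 and 58.9 CPM in WT and 2.55, 21.6 and 18.4 CPM in KD, lowest in replicate 1 of each condition. The 4 keratinocyte markers summed to 31.0 to 41.8 CPM in WT and 19.2 to 27.3 CPM in KD without overlap, nearly all of it KRT10, while KRT1 was at 0 in every library. The mitochondrial share of counts was 5.07% in WT replicate 1 and between 2.12% and 2.94% elsewhere. The part of these differences in the results below was not tested, and in such bulk RNA fewer cells of a kind and less RNA per cell cannot be told apart.

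Of the 41 members, 40 passed the filter on low counts, and CA12, a second membrane carbonic anhydrase, did not. In the edgeR quasi-likelihood test, adjusted by the Benjamini-Hochberg method for 15605 genes, 2 of the 40 (5.0%) were called, against 2.59% of all tested genes, and both were higher in KD, where 1.75% of all genes were called higher and 0.839% lower. An unadjusted p under 0.05 was reached by 7 members (14.8% of all genes reached it). The median log2 fold change of the members was -0.03, the same to 2 decimals as that of all tested genes, with 18 members above 0 and 22 below. With the replicate number as a block, edgeR called 3 members higher and 3 lower, together 15% of those tested, against 9.52% of all genes (5.1% higher and 4.42% lower). DESeq2 called 3 and limma-voom 2 members, against 6.28% and 2.64% of all genes. Scaling by library totals or asking for 10 counts in every library left 2 members called (2.55% and 3.55% of all genes), and 4 were called without a filter on low counts (4.54%) or without replicate 1 of both conditions (4.73%). At an adjusted p under 0.01, HK2 alone was called (0.878% of all genes). The WT and KD libraries did not overlap in 8 members (20.0%), a share close to the 22.3% of all genes.

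**Figure D1:**
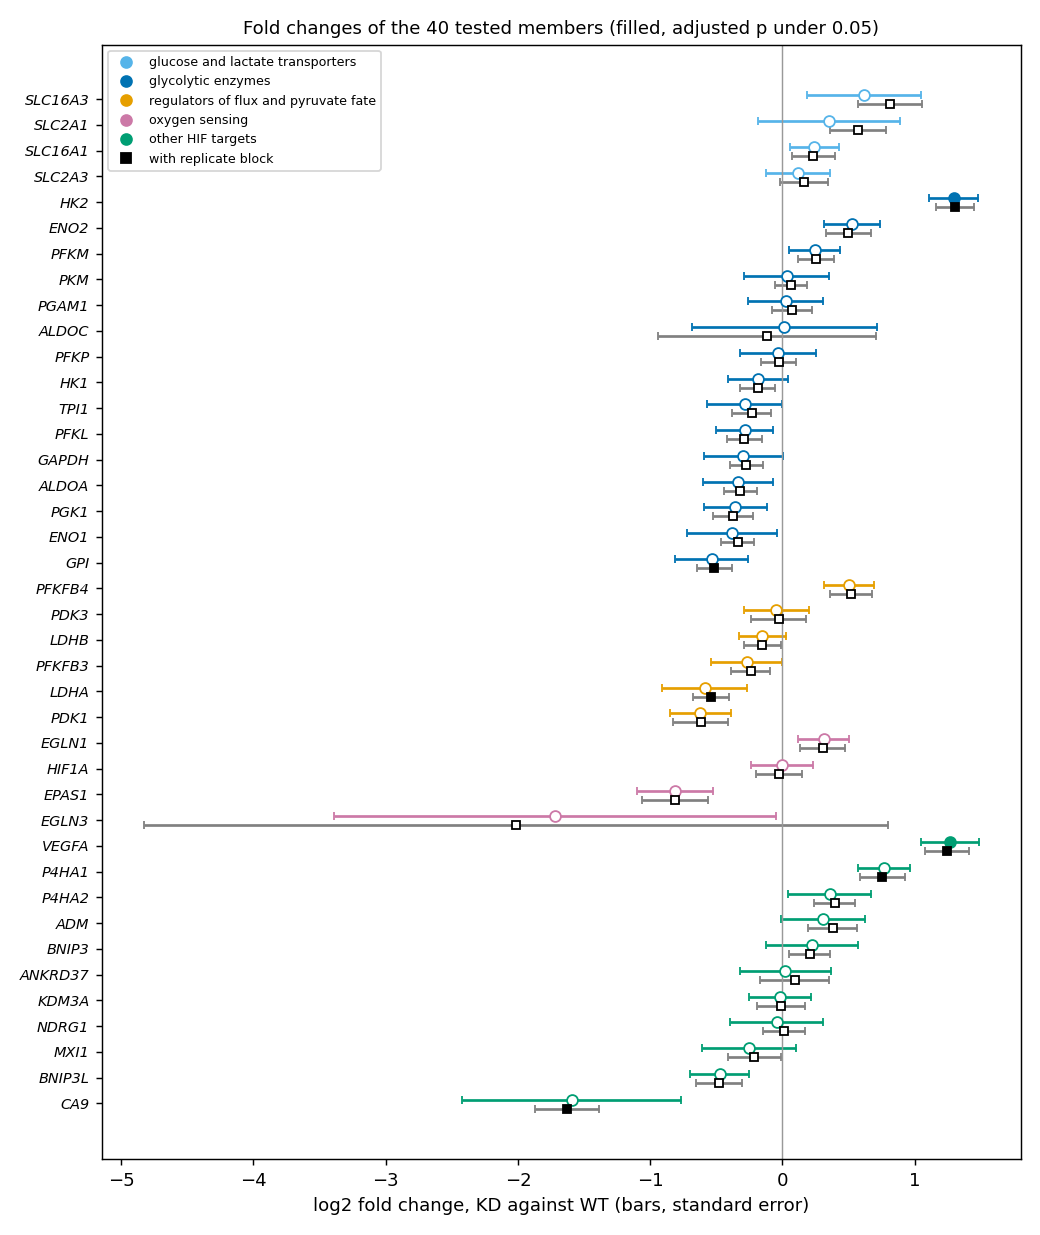
Log2 fold change of KD against WT for the 40 tested members, by role group (circles, fit without a block; squares, fit with the replicate block; bars, standard error; filled symbols, adjusted p under 0.05). HK2 at 1.3 and VEGFA at 1.27 are filled in both fits, and P4HA1, GPI, LDHA and CA9 only with the block, while most members lie near 0.

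Hexokinases commit glucose to metabolism by phosphorylating it. HK2 (ENSG00000159399, GRCh37 chr2:75061254-75120486, plus strand) was at 95.5, 122 and 117 CPM in WT replicates 1 to 3 and at 263, 277 and 281 CPM in KD. Every KD library lay above every WT library, and replicate 1 was close to its partners in both conditions. Mean levels were 112 ± 14.1 CPM without and 274 ± 9.46 CPM with doxycycline (SD, n = 3), and the log2 fold change was 1.3 ± 0.19 (SE, adjusted p = 0.00649, edgeR's quasi-likelihood test). The call was lost without KD replicate 3, where the change was 1.26 on the log2 scale with an adjusted p of 0.0611, and was kept in the other 15 refits (adjusted p from 1.7e-08 to 0.0414). The refit without KD replicate 3 called 0.733% of all genes, against 2.59% with all libraries. HK1, the constitutive hexokinase, was at 234, 339.5 and 296.5 CPM in WT and 202, 306 and 257 CPM in KD, which overlapped (log2 fold change -0.18, adjusted p = 0.806).

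The ratio of HK2 to HK1 counts within a library does not depend on scaling between libraries. It was 0.409, 0.359 and 0.395 in WT and 1.3, 0.908 and 1.09 in KD, so the ratio was higher in every KD library. The mean log2 ratio rose by 1.49, or 2.81-fold, with an exact two-sided permutation p of 0.1, which is the smallest that 3 against 3 libraries can give (0.325 after Benjamini-Hochberg adjustment over 13 ratios). Per kilobase of the canonical transcript, the ratio of HK2 to HK1 was 0.230 to 0.262 in the WT libraries and 0.581 to 0.833 in the KD libraries, so HK1 was the more abundant of these hexokinases in all 6.

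VEGFA (ENSG00000112715, chr6:43737921-43754224, plus strand) was at 92.6, 91.8 and 106 CPM in WT and at 172, 273 and 252 CPM in KD. The groups did not overlap, and the lowest KD library, replicate 1, was still above the highest WT library. The means were 96.7 ± 7.91 CPM and 233 ± 53.1 CPM (SD, n = 3), with a log2 fold change of 1.27 ± 0.22 (SE, adjusted p = 0.0166, edgeR). The call was less firm than that of HK2. It was lost without WT replicate 2 (log2 fold change 1.23, edgeR adjusted p = 0.0882), without WT replicate 3 (1.33, adjusted p = 0.068), without KD replicate 2 (1.13, adjusted p = 0.0968) and without KD replicate 3 (1.19, adjusted p = 0.116). In that order, these refits called 1.07%, 0.989%, 0.88% and 0.733% of all genes, against 2.59% with all libraries. Under the block the adjusted p was 0.00128, and without replicate 1 of both conditions it was 0.00347.

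P4HA1 (ENSG00000122884, chr10:74766975-74856732, minus strand) encodes the catalytic subunit of collagen prolyl 4-hydroxylase. It was at 45.7, 44 and 46.1 CPM in WT and 91.0, 76.9 and 63.6 CPM in KD, and the groups did not overlap. The log2 fold change was 0.77 ± 0.20, a 1.70-fold difference that did not pass the test (adjusted p = 0.0847, edgeR). With the replicate block it passed (adjusted p = 0.0204), as it did with DESeq2 (adjusted p = 0.021) and without a filter on low counts (adjusted p = 0.036). Its relative P4HA2 was at 47.4 to 108 CPM in WT and 74.0 to 133 CPM in KD, which overlapped.

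**Figure D2:**
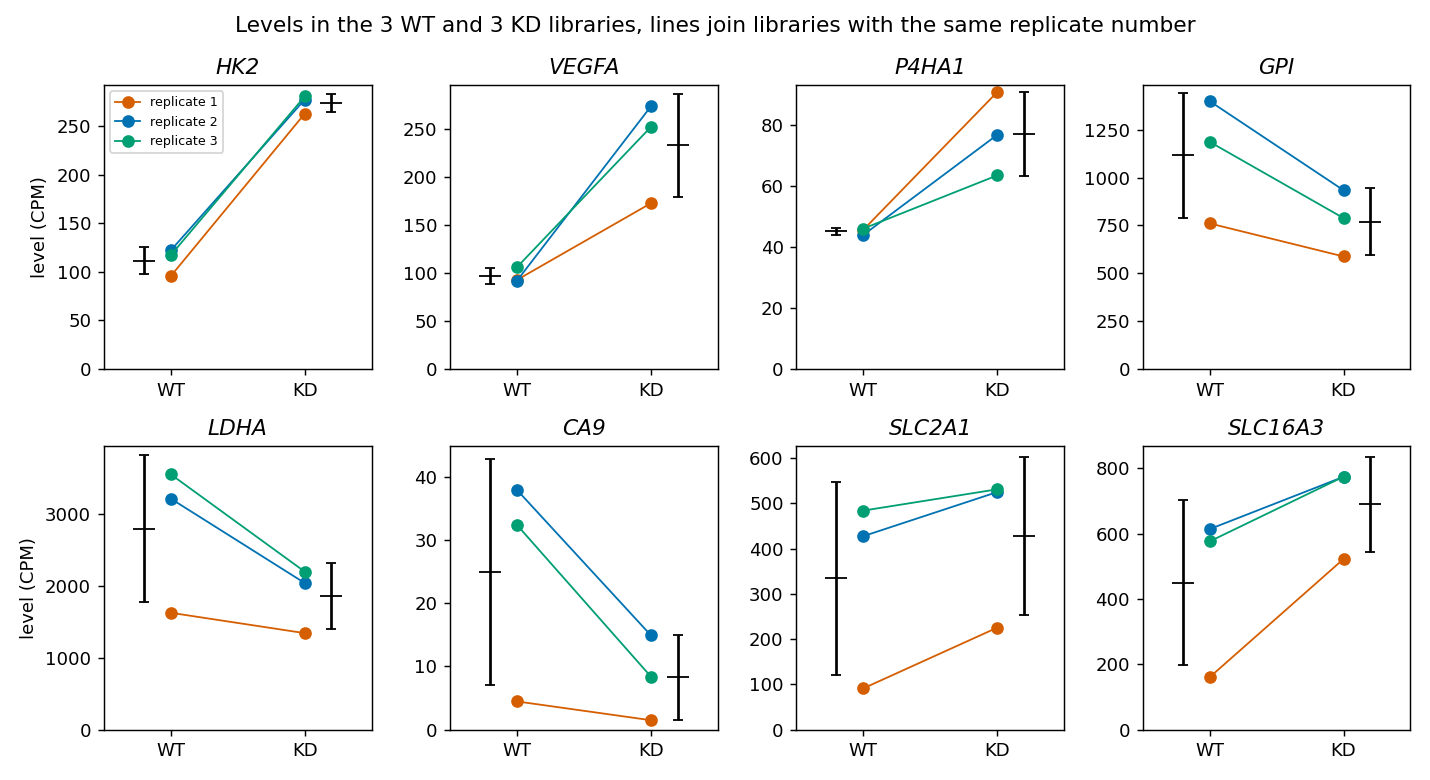
Level (CPM, from 0 unless an error bar reaches below it) of 8 members in the 3 WT and 3 KD libraries, with lines joining libraries of the same replicate number and black marks for the mean and SD of each condition. In HK2, VEGFA and P4HA1 all KD points lie above all WT points, whereas in GPI, LDHA and CA9 the groups overlap but each line falls, and in SLC2A1 and SLC16A3 each line rises and replicate 1 is lowest.

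CA9 (ENSG00000107159, chr9:35673925-35681156, plus strand) was at 4.47, 37.9 and 32.4 CPM in WT and at 1.49, 14.9 and 8.38 CPM in KD. Replicate 1 was the lowest library of each condition by a wide margin, at 12.7% of the mean of replicates 2 and 3 in WT and 12.8% in KD, and the groups overlapped because of it. The unblocked log2 fold change was -1.59 ± 0.83 (SE, adjusted p = 0.432, edgeR), with mean levels 3.02-fold apart. Between libraries of the same number CA9 was lower in KD each time, by log2 differences of -1.52, -1.34 and -1.94, and with the block its log2 fold change was -1.63 with an adjusted p of 0.00241. Leaving out replicate 1 of both conditions gave -1.59 with an adjusted p of 0.0289 (edgeR). Fitting without a filter on low counts gave -1.59 with an adjusted p of 0.000246 (edgeR), with 24277 genes in the fit instead of 15605. CA9 passes the filter, so its own counts were the same in that fit, and the reason for the lower adjusted p was not tested. With single libraries left out it ranged from -1.09 without KD replicate 1 to -2.33 without KD replicate 2 and was not called. CA12 was at 0.58 CPM in WT replicate 2, at 1.03 CPM in KD replicate 1 and at 0 in the other 4 libraries, too low for a test.

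Among the 12 further HIF targets, 11 of them tested, 1 was called higher and 0 lower without the block, and 2 higher and 1 lower with it. Over all tested genes 2.59% were called without and 9.52% with the block. BNIP3 and BNIP3L, which encode receptors for the removal of mitochondria, had log2 fold changes of 0.22 and -0.47 and did not pass the test, and that of BNIP3 was -0.02 without WT replicate 1. About 17.1% of the summed WT counts of BNIP3 and its pseudogenes, and 19.4% in KD, were assigned to the pseudogenes, so its value is uncertain. NDRG1, a stress-responsive gene with wide use as a hypoxia marker, was at 211, 526 and 456 CPM in WT and at 271, 512 and 374 CPM in KD, with overlapping groups. ADM, which encodes the vasodilator adrenomedullin, ANKRD37, the histone demethylase gene KDM3A and the MYC antagonist gene MXI1 had log2 fold changes between -0.25 and 0.31, and none passed. That of MXI1 was 0.19 without WT replicate 1.

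The remaining glycolytic enzymes formed the most abundant set of members. Per kilobase of transcript the highest mean levels in WT were those of GAPDH (6543 CPM per kb), ENO1 (4507), PKM (4273) and ALDOA (2572), which encode the dehydrogenase step, enolase, pyruvate kinase and aldolase. In KD the corresponding levels were 5328, 3454, 4370 and 2041 CPM per kb. None of these differences passed the test, and the libraries of the conditions overlapped for all of them. Of the 15 enzyme genes, 6 had a log2 fold change above 0 and 9 below, with a median of -0.18.

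GPI (ENSG00000105220, chr19:34850385-34893318, plus strand) encodes the isomerase that follows hexokinase. It was at 761, 1400.4 and 1188 CPM in WT and 588, 934 and 789 CPM in KD, and the groups overlapped through WT replicate 1. The log2 fold change was -0.54 ± 0.27 (SE, adjusted p = 0.425, edgeR). With the replicate block GPI was called lower (-0.52, adjusted p = 0.0365), and each same-numbered pair was lower in KD, by log2 differences of -0.37, -0.58 and -0.59.

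The phosphofructokinase genes encode the main regulated step, and the isoforms gave small values of differing sign, with log2 fold changes of -0.29 for PFKL, 0.24 for PFKM and -0.04 for PFKP. PFKM was the only enzyme gene that was highest in replicate 1 of both conditions. Its levels were 203, 164 and 149 CPM in WT and 220.0, 206 and 186 CPM in KD. ENO2, the neuronal enolase, was at 89.5, 93.0 and 87.0 CPM in WT and at 167, 107 and 115 CPM in KD. Its groups did not overlap, but the log2 fold change of 0.53 did not pass the test (adjusted p = 0.283, edgeR). ENO2 overlaps LRRC23 in the annotation, whose counts were 9.95% of its own. ALDOC, the brain aldolase, was at 0.965 to 4.35 CPM over the 6 libraries, which overlapped (log2 fold change 0.01, adjusted p = 0.996, edgeR). ALDOC overlaps RSKR in the annotation, whose counts were 156% of its own.

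LDHA (ENSG00000134333, chr11:18416107-18429972, plus strand), whose product makes lactate from pyruvate, was at 1623, 3209 and 3547 CPM in WT and at 1341, 2037 and 2194 CPM in KD. Replicates 2 and 3 of KD lay below those of WT, while WT replicate 1 lay among the KD libraries. The log2 fold change was -0.59 ± 0.32 (SE, adjusted p = 0.455, edgeR), and with the block -0.54 with an adjusted p of 0.0339. Without replicate 1 of both conditions the change was -0.67 with an adjusted p of 0.0455. LDHB, the isoform that favors the reverse reaction, was at 452, 399.9 and 434 CPM in WT and at 367, 415 and 376 CPM in KD, which overlapped.

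PDK1 encodes a kinase that inactivates pyruvate dehydrogenase and so limits the use of pyruvate in the tricarboxylic acid cycle. It was at 35.7, 27.5 and 27.6 CPM in WT and at 18.2, 18.2 and 22.7 CPM in KD. All KD libraries were below all WT libraries, but the log2 fold change of -0.62 ± 0.23 did not pass (adjusted p = 0.237, and 0.0969 with the block, edgeR). PFKFB4, which sets the level of the phosphofructokinase activator fructose 2,6-bisphosphate, was at 91.6, 119 and 125 CPM in WT and at 165, 153 and 158 CPM in KD. Its groups did not overlap either, with a log2 fold change of 0.50 and adjusted p-values of 0.243 and 0.072 without and with the block (edgeR). PFKFB4 overlaps UCN2 in the annotation, whose counts were 30.7% of its own. No regulator of flux or pyruvate fate was called without the block by edgeR, DESeq2 or limma-voom (0 of 6 each). These tests called 2.59%, 6.28% and 2.64% of all genes. Of these 6 regulators, 2 had an unadjusted p under 0.05 (14.8% of all genes reached it).

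SLC2A1 encodes the glucose transporter GLUT1 and SLC16A3 the lactate exporter MCT4. SLC2A1 was at 91.2, 428 and 484 CPM in WT and at 225, 525 and 531 CPM in KD. SLC16A3 was at 159.9, 613 and 576 CPM in WT and at 522, 773 and 774 CPM in KD. Replicate 1 was the lowest library of its condition for both genes, at 20.0% and 26.9% of the mean of the other WT libraries, and the groups overlapped. SLC16A3 was higher in KD in each same-numbered pair, by log2 differences of 1.71, 0.33 and 0.43, the largest of them in the pair of replicate 1. Its log2 fold change was 0.62 ± 0.43 (SE, adjusted p = 0.598, edgeR) and 0.81 with the block (adjusted p = 0.0627), and it was 0.21 without WT replicate 1. For SLC2A1 the log2 fold change was 0.35 (adjusted p = 0.851, edgeR), and it turned to -0.09 without WT replicate 1, while it was 0.57 with the block (adjusted p = 0.132) and 0.22 without replicate 1 of both conditions. SLC2A1 too was higher in KD in each same-numbered pair. None of the 4 transporters was called by edgeR without or with the block, by DESeq2 or by limma-voom. Over all genes these tests called 2.59%, 9.52%, 6.28% and 2.64%, in that order. Of the transporters, 0 had an unadjusted p under 0.05 (14.8% of all genes). At these shares, 0 of 4 says little about the transporters. SLC2A3, which encodes GLUT3, and SLC16A1, which encodes MCT1, had log2 fold changes of 0.12 and 0.24, and that of SLC2A3 was -0.12 without WT replicate 1.

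HIF1A, the HIF alpha subunit present in most cells, was at 51.1, 38.5 and 46.1 CPM in WT and at 58.3, 40.3 and 36.7 CPM in KD. The groups overlapped fully, with a log2 fold change of -0.01 ± 0.24 (SE, adjusted p = 0.995, edgeR). EPAS1, which encodes the second alpha subunit, was at 17.7, 17.3 and 13.3 CPM in WT and at 8.43, 11 and 8.05 CPM in KD. The KD libraries were all below the WT libraries, at a log2 fold change of -0.81 ± 0.29 that did not pass (adjusted p = 0.207, and 0.0693 with the block, edgeR). EGLN1, the main prolyl hydroxylase that marks HIF alpha for destruction, was at 35.2 to 35.4 CPM in WT and at 40.6, 41 and 49.8 CPM in KD, without overlap but with an adjusted p of 0.534. EGLN3, itself a HIF target, stayed at or under 1.27 CPM in every library and overlaps the far more abundant SPTSSA. edgeR, DESeq2 and limma-voom each called 0 of the 4 oxygen-sensing genes, against 2.59%, 6.28% and 2.64% of all genes. Of the 4, 1 had an unadjusted p under 0.05 (14.8% of all genes). These are transcript levels, and HIF alpha is controlled mainly as a protein, which was not measured here.

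Related genes were also compared as count ratios within each library. Of 15 planned pairs, 13 had 10 counts or more for both genes in every library. The WT and KD ratios did not overlap in 4 of the 13, with HK2 to HK1 showing the greatest shift. PFKFB4 to PFKFB3 was 1.02, 0.691 and 0.845 in WT and 1.86, 1.12 and 1.38 in KD, a rise of 0.76 in mean log2 ratio. PDK3 to PDK1 rose by 0.59, and EPAS1 to HIF1A fell by 0.79 on the log2 scale, from 0.347, 0.450 and 0.287 to 0.145, 0.274 and 0.219. Each of the 4 had an exact two-sided permutation p of 0.1, the smallest possible, and none of the 13 was below 0.325 after adjustment. LDHA to LDHB was 3.59, 8.02 and 8.17 in WT and 3.65, 4.91 and 5.83 in KD, so that replicate 1 was alike in the 2 conditions.

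**Figure D3:**
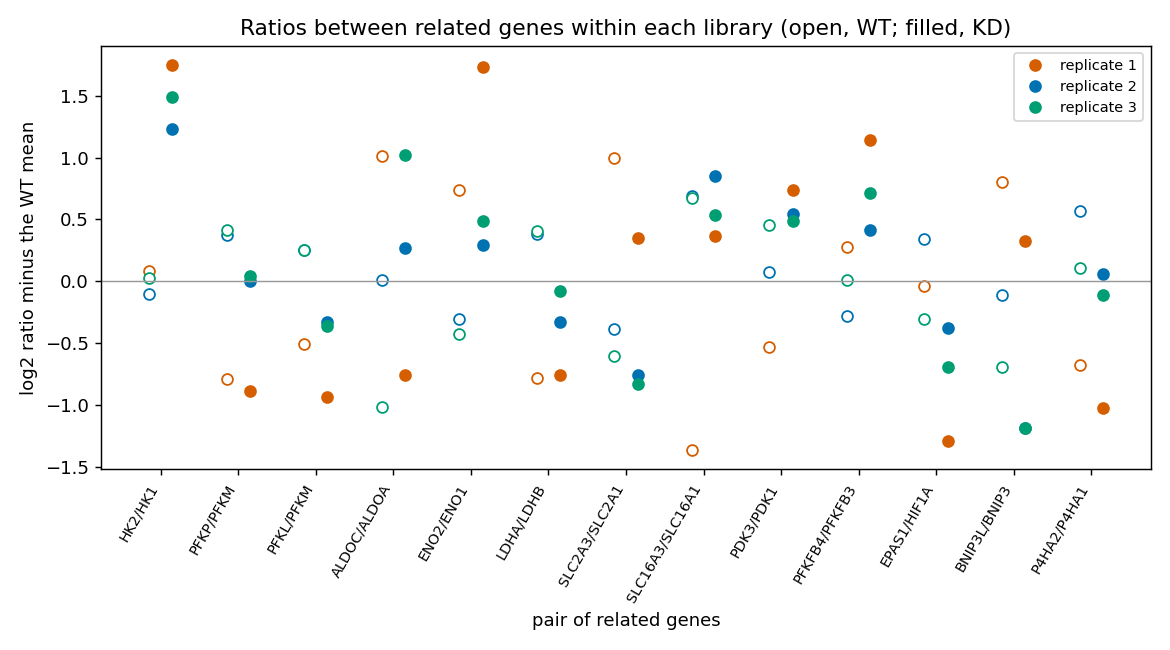
Log2 ratio of counts for 13 pairs of related genes within each library, less the WT mean of that pair (open points, WT; filled points, KD; colors, replicate number). All KD points of HK2/HK1 lie above all WT points, by 1.49 on average, and in 4 of the 13 pairs the open and filled points do not overlap.

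Replicate 1 shaped many of these values. In 23 of the 40 tested members (57.5%) it was the lowest library of its condition in both WT and KD, a pattern seen in 22.0% of all tested genes, and in 5 (12.5%) it was the highest in both, against 23.6%. This count was made after the data had been seen. Among the glycolytic enzymes 12 of 15 had replicate 1 lowest in both conditions. GAPDH in replicate 1 was at 54.7% of the mean of the other libraries in WT and 64.7% in KD, ENO1 at 46.1% and 59.1%, PKM at 50.5% and 61.7%, and NDRG1, outside the enzymes, at 42.9% and 61.0%. HK2 was among these 12, at 79.9% and 94.2%. The 5 members highest in replicate 1 of both conditions were PFKM, HIF1A, BNIP3L, KDM3A and MXI1.

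**Figure D4:**
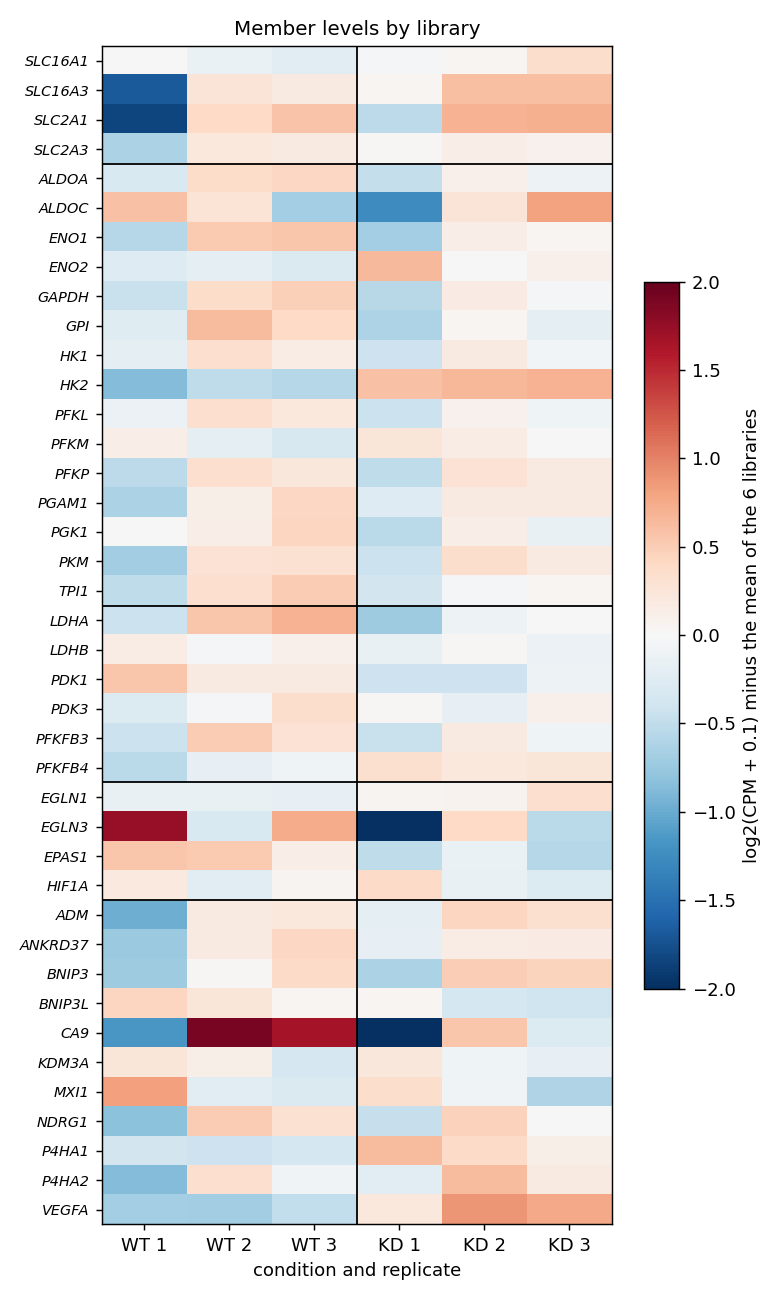
Level of the 40 tested members in each library, as log2(CPM + 0.1) less the mean of the 6 libraries (red, higher; blue, lower; colors stop at 2 in either direction), with lines between conditions and role groups. In 12 of the 15 glycolytic enzymes replicate 1 is the bluest library of both conditions, while HK2 and VEGFA are red across the KD libraries.

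The glycolytic enzymes together took 2.63%, 4.29% and 4.30% of all counts in WT and 2.58%, 3.70% and 3.48% in KD. The share was lower in KD in each same-numbered pair, by the least in replicate 1. The mean shares were 3.74% ± 0.96 and 3.25% ± 0.59 (SD, n = 3) and were not tested. In same-numbered pairs, 24 of the 40 members (60%) moved in 1 direction in all 3 pairs, 12 up and 12 down, against 45.8% of all genes. This pattern too was looked for after the data had been seen.

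Genes of neighbouring pathways that are not members were read from lists of 116 genes, 99 of them tested. edgeR called 0 without the block (2.59% of all genes), with 12 at an unadjusted p under 0.05 (14.8% of all genes). DESeq2 called 4 (6.28% of all genes) and limma-voom 2 (2.64%). With the block edgeR called 4 higher and 4 lower (8.08% of those tested, against 9.52% of all genes). ADPGK, an ADP-dependent glucokinase and the only one of 18 tested further glycolysis genes called with the block, was at 72.4, 77.6 and 90.9 CPM in WT and 131, 141 and 149.8 CPM in KD. Its groups did not overlap, and its log2 fold change was 0.81 ± 0.18 (SE, adjusted p = 0.0517 without and 0.00644 with the block, edgeR). It lies in the same step of the pathway as HK2.

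Among 36 tested further hypoxia-induced genes, the block gave 2 higher and 3 lower, together 13.9%. Over all tested genes the block called 9.52%. KDM5C, a histone demethylase gene, had a blocked log2 fold change of 0.51 (adjusted p = 0.0496, edgeR). TFRC, the transferrin receptor gene, was at 165, 138 and 174 CPM in WT and at 98.2, 53.4 and 74.5 CPM in KD, without overlap (log2 fold change -1.08, adjusted p = 0.0524 without and 0.00249 with the block, edgeR). The collagen cross-linking gene LOXL2 (-0.94, adjusted p = 0.00842) and WSB1 (-0.90, adjusted p = 0.0321) were lower with the block. In the pentose phosphate pathway, which branches from glycolysis, 1 of 7 genes was called with the block. This was TKT, encoding transketolase, at 945, 1368 and 1388 CPM in WT and 533, 762 and 709.8 CPM in KD (log2 fold change -0.88, adjusted p = 0.0982 without and 0.00237 with the block, edgeR). Among 23 genes of pyruvate entry and the tricarboxylic acid cycle, the block called OGDH higher (0.56, adjusted p = 0.033, edgeR). It encodes a subunit of the oxoglutarate dehydrogenase complex. Of the 15 tested further HIF pathway genes 0 were called by edgeR without or with the block, by DESeq2 or by limma-voom. Those tests called 2.59%, 9.52%, 6.28% and 2.64% of all genes. None of the 15 had an unadjusted p under 0.05 (14.8% of all genes).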

How the data were processed

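RNA-seq of 3 WT and 3 KD libraries of M14 cells was analysed. With STAR on hg19 and RSEM, the authors produced and deposited expected counts per gene, without scaling or filtering. RSEM shares multi-mapping reads among genes, so some counts are not whole, and the strand setting is not given in the sources used here. Totals of 24895998 to 35181733 expected counts set the counting precision. After rounding, filterByExpr kept 15605 of 57820 genes and TMM scaled the libraries. The quasi-likelihood test of edgeR 4.0.16 in R 4.3.3 compared the conditions, p-values were adjusted for all tested genes by the Benjamini-Hochberg method, and the threshold was 0.05. The study compared its libraries with RSEM's own step, which was not run here. Alternatives were DESeq2 1.42.0, limma-voom (limma 3.58.1), other scalings and filters, a stricter threshold, pseudogene counts added, each library left out, and a replicate block. The tests were tested on simulated data. Ratios were compared in Python 3.11.15 by exact permutation tests. Lengths are those of GENCODE canonical transcripts.

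WT and KD libraries share replicate numbers. Over 8932 genes, deviations from the condition means correlated at 0.565, 0.453 and 0.356 between libraries of the same number and at -0.525 to 0.275 between others. The 0.275 was between WT replicate 2 and KD replicate 3, and WT replicate 3 and KD replicate 2 correlated at 0.149. Deviations from a condition mean cancel out, so positive correlations in some pairs bring negative ones in others. The numbers were therefore treated as pairs in the replicate block and in the same-numbered comparisons, but not in the main test. This pairing was read from the same data, and the calls that need the block rest on it. The main test has no block because the labels and methods name no pairing. The members and all gene lists were chosen with earlier results of these data known. Any member could be named, and from each other list the genes called with or without the block, at most 6 per list by size of change. Some results that this rule would name are not reported here.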

Additional observations from a re-analysis of the deposited data

How the results depend on the processing

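The 6 members discussed for their calls kept their direction under every alternative tried. The number of members called, 2 in the comparison as reported, was 6 with the replicate block, 4 without a filter on low counts, 4 without replicate 1 of both conditions, 1 at an adjusted p under 0.01, and 0 to 2 with 1 library left out. The block moved the calls of P4HA1, GPI, LDHA and CA9 and changed no other member's call. The glycolytic enzymes went from 1 to 2 with the block and ranged from 0 to 1 with 1 library left out. The regulators of flux went from 0 to 1 with the block and without replicate 1 of both conditions. The other HIF targets, with 1 call, had 3 with the block, 2 with DESeq2, 3 without the filter, 2 without replicate 1 of both, 0 at the stricter threshold, and 0 to 1 with a library left out. With 1 library left out HK2 lost its call in 1 refit and VEGFA in 4. The refits with 1 library left out called 0.733% to 3.22% of all genes, against 2.59% with all libraries. The block called 9.52% of all genes, DESeq2 6.28% and the fit without the filter 4.54%. Leaving out replicate 1 of both conditions called 4.73%, and the stricter threshold 0.878%.

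For the other lists together, 0 genes were called as reported, against 8 with the block, 4 with DESeq2, 2 with limma-voom, 2 with library total scaling, 6 without the filter, 2 with 10 counts in every library, 5 without replicate 1 of both and 0 to 1 with a library left out. Among them the further glycolysis genes had 1 call with the block, limma-voom, library total scaling, no filter, 10 counts and without replicate 1 of both, and 2 with DESeq2. The further hypoxia-induced genes had 5 with the block, 1 with DESeq2, limma-voom or 10 counts, 4 without the filter, 3 without replicate 1 of both and 0 to 1 with a library left out. The tricarboxylic acid cycle list had 1 with the block. The pentose phosphate list had 1 with the block, DESeq2, library total scaling, no filter or without replicate 1 of both, and 0 to 1 with a library left out. Over all genes the comparison as reported called 2.59%, the block 9.52%, DESeq2 6.28% and limma-voom 2.64%. Library total scaling called 2.55%, no filter 4.54%, 10 counts in every library 3.55% and leaving out replicate 1 of both 4.73%. With 1 library left out the share was 0.733% to 3.22%. The cause of the shifts in these lists was not tested.

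Direction turned only in members with small differences, none of them called. Without replicate 1 of both conditions the log2 fold change was -0.075 for SLC2A3, -0.080 for PGAM1, -0.023 for PKM and -0.15 for ANKRD37. ALDOC was at -0.12 with the block, -0.15 with limma-voom, -0.030 with upper-quartile scaling and -0.036 with library total scaling. Upper-quartile scaling gave -0.0066 for PGAM1 and -0.0077 for ANKRD37, library total scaling gave 0.0028 for HIF1A, and NDRG1 was at 0.011 with the block and 0.015 with limma-voom. With 1 library left out, the log2 fold changes ranged from -0.092 to 0.72 for SLC2A1, -0.12 to 0.26 for SLC2A3, -0.26 to 0.18 for PFKP, -0.49 to 0.42 for ALDOC, -0.22 to 0.26 for PGAM1, -0.23 to 0.24 for PKM, -0.18 to 0.13 for PDK3, -0.23 to 0.10 for HIF1A, -0.025 to 0.51 for BNIP3, -0.35 to 0.21 for NDRG1, -0.26 to 0.26 for ANKRD37, -0.18 to 0.089 for KDM3A and -0.51 to 0.19 for MXI1. The log2 ratios ranged from -0.68 to 0.020 for PFKP to PFKM, -0.33 to 0.68 for ALDOC to ALDOA, -0.80 to 0.084 for SLC2A3 to SLC2A1 and -0.094 to 0.93 for SLC16A3 to SLC16A1. CA12, at 0 in 4 libraries, did not pass the filter and was not tested.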
